A study of Rattus norvegicus with 30 samples.

Results

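The miR-29 family was followed in the small RNA of rat urinary exosomes after renal ischemia-reperfusion injury (IRI). Its members were taken by name from the deposited tables as rno-miR-29a-3p, rno-miR-29b-3p, rno-miR-29c-3p and rno-miR-29c-5p, which are 4 of the 122 miRNAs listed on at least 1 day. Male Sprague-Dawley rats, aged 10 weeks, had the vascular pedicles of both kidneys clamped for 25 minutes (IRI rats 1, 2 and 13) or underwent sham surgery (sham rats 3, 6 and 9). Urine was collected from the same 6 rats at days 1, 2, 3, 7 and 14, which gave 30 libraries, and the rat is the replicate (3 rats per group). The labels name no drug and no genetic change in either group. In exosome preparations, fewer vesicles and less miRNA per vesicle cannot be told apart.

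The miR-29 family is known for repressing the mRNAs of collagens and other extracellular matrix proteins. In kidney and other organs TGF-β, the main profibrotic cytokine, lowers its level, and the family is therefore classed as antifibrotic. The 3p arms are the guide strands that load into Argonaute, whereas the 5p arm comes from the opposite side of the hairpin and has another seed.

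The mature sequences are shown because the 3p members are so alike that reads can be shared between them, and because the seed (bases 2 to 8, in capitals) decides which mRNAs are recognised. They are given 5′ to 3′ and come from RefSeq on the GRCr8 build, in which all 4 members were found.
miR-29a-3p: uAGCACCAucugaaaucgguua
miR-29b-3p: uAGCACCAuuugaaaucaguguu
miR-29c-3p: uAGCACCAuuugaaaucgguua
miR-29c-5p: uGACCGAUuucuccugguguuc

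The 3 3p arms shared the seed AGCACCA, which no other mature miRNA of the sequence table had, and miR-29c-5p was alone with its seed GACCGAU. Counted from 1 at the 5′ end, miR-29a-3p and miR-29c-3p differed at a single position of 22 (C10U, with the base of miR-29a-3p first). miR-29b-3p was identical to miR-29c-3p over positions 1 to 17 and then differed at A18G, G21U and U22A, with the base of miR-29b-3p first. Its last bases, AGUGUU, correspond to the motif known in human cells to direct miR-29b into the nucleus. Of 693 mature rat miRNAs, 8 (1.15%) held AGUGUU anywhere, and of the 109 listed miRNAs with a sequence 3 (2.75%) did. Only the given strand was searched, as the molecules are single-stranded. GGAG, a motif linked to exosomal sorting in human T cells, was in 0 of the 4 members, against 56 of 693 mature miRNAs (8.08%) and 11 of the 109 listed ones (10.1%).

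The family comes from a pair of loci in the RefSeq annotation of GRCr8, each with a couple of hairpins. Mir29a, with mature miR-29a-3p at chr4:60617968-60617989, and Mir29b1, with mature miR-29b-3p at chr4:60618342-60618364, lie on the minus strand, and 291 bases separate their hairpins. Mir29b2, whose mature miR-29b-3p is at chr13:109098882-109098904, and Mir29c lie on the plus strand with 447 bases between the hairpins. Mir29c yields miR-29c-5p at chr13:109099374-109099395 and miR-29c-3p at chr13:109099412-109099433. Since both copies of miR-29b-3p are identical, its value cannot be assigned to either locus. None of the other 5p arms, miR-29a-5p, miR-29b-5p and miR-29b-1-5p, was listed on any day.

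The deposited values are read counts that the authors scaled. Summed over the listed miRNAs of a library, they gave unequal listed totals of 742597 to 1906282. In each library all low values were whole multiples of 1 step, the worth of 1 read. The listed miRNAs amounted to 11165 to 50722 reads in IRI libraries and 935 to 2125 in sham libraries at day 1. The ranges were 1122 to 10542 in IRI and 696 to 1955 in sham at day 2, and 691 to 12739 in IRI and 289 to 909 in sham at day 3. At day 7 they were 431 to 837 in IRI and 211 to 981 in sham, and at day 14 they were 651 to 1157 in IRI and 666 to 1796 in sham. Depth therefore differed between the groups most at day 1. Lanes 2 and 5 held IRI libraries only, so the within-lane pairs were IRI rat 13 and sham rat 9 (lane 4, days 1 and 2) and IRI rat 2 and sham rat 3 (lane 3, day 14). At days 3 and 7 no lane held both groups, and lane and group cannot be told apart there.

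Converted to reads, the members fell on different counting steps. miR-29a-3p was above 0 in 26 of 30 libraries and took any whole number from 1 read upwards. Every one of the 21 values of miR-29b-3p above 0 was a multiple of 3 reads, and all 13 values of miR-29c-3p and all 4 of miR-29c-5p were multiples of 2. Among 90 miRNAs with at least 6 values of up to 300 reads, 79 had no common multiple above 1, 9 had multiples of 2 and 2 had multiples of 3, the other one being miR-9a-5p. Of the miRNAs matched to the sequence table, 5 of 10 with 2 or more loci had a common multiple above 1, against 6 of 68 with 1 locus. What makes the steps was not tested. Counting errors below therefore rest on units, 1 unit being 3 reads for miR-29b-3p, 2 for either arm of miR-29c and 1 for miR-29a-3p. In all, 462 units of miR-29a-3p, 219 of miR-29b-3p, 208 of miR-29c-3p and 14 of miR-29c-5p were counted.

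**Figure D1:**
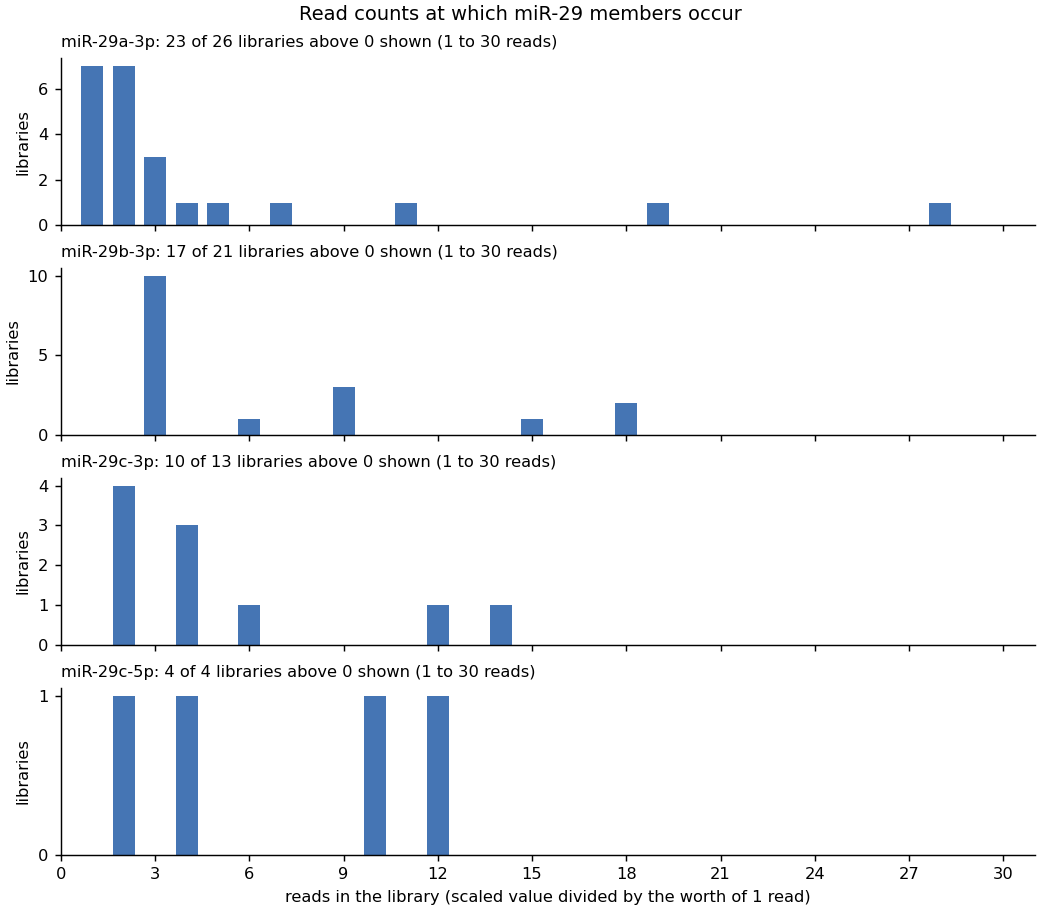
Number of libraries (y axis) in which each miR-29 member had a given number of reads (x axis, 1 to 30 reads), over all days and both groups. miR-29b-3p occurs at 3, 6, 9, 15 and 18 reads and the miR-29c arms at even numbers, whereas miR-29a-3p starts at 1 read.

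On the scaled values the members were of middle rank. By mean over the 6 libraries of a day, miR-29b-3p ranked 31 of 110 listed miRNAs at day 1, 31 of 86 at day 2, 50 of 72 at day 3, 29 of 68 at day 7 and 33 of 79 at day 14. miR-29a-3p ranked 38, 57, 51, 55 and 50 on the same days. miR-29c-3p ranked 39, 47 and 42 at days 1, 2 and 14 and was not listed at days 3 and 7, and miR-29c-5p ranked 68 at day 1, the only day on which it was listed. The order of miR-29a-3p and miR-29b-3p depended on the unit. As deposited, miR-29b-3p was above miR-29a-3p in 15 of 30 libraries, below it in 9 and equal in 6, but by units it was above in 5, below in 18 and equal in 7.

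At day 1 the 3 seed-sharing arms had higher means in IRI urine than in sham urine, while miR-29c-5p had a lower one, and no member passed the adjusted threshold of 0.05 (limma with Benjamini-Hochberg adjustment). Of all 110 miRNAs, 0.909% passed it. Fold changes are log2 differences of log2(value + 500), IRI minus sham, which understate changes of low values. The median over all miRNAs was 0.30 at day 1, and the 4 members had a median of 1.19.

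miR-29a-3p had scaled values of 4983, 4210 and 4156 in IRI rats 1, 2 and 13, from 120, 55 and 183 reads, against 1459, 2010 and 3746 in sham rats 3, 6 and 9, from 2, 5 and 4 reads. As deposited, every IRI library was above every sham library, which held for 16.4% of all miRNAs at day 1 in this direction. The listed totals were 1481465 and 1151967 in IRI rats 1 and 13, against 875589 in sham rat 9. Relative to these totals, sham rat 9 lay above IRI rats 1 and 13. The means of miR-29a-3p were 4450 ± 462.7 in IRI and 2405 ± 1194 in sham (SD, 3 rats each). Its log2 fold change was 0.84 (SE 0.38, adjusted p = 0.37, limma), and 0.52 with libraries scaled to equal totals (adjusted p = 0.78, limma). The pooled units gave an IRI over sham ratio of 1.98 with a 95% interval of 1.09 to 3.99, which covers counting error only. Within lane 4 the values were 4156 in IRI rat 13 and 3746 in sham rat 9, the narrowest gap between the groups.

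miR-29b-3p, the member with the nuclear motif, had 8222, 4363 and 5655 in IRI rats 1, 2 and 13 at day 1, against 0, 6031 and 2809 in sham rats 3, 6 and 9. The sham values stood for 0, 5 and 1 units, and sham rat 6 lay above IRI rats 2 and 13, so the groups overlapped. The log2 fold change was 1.53 (SE 0.94, adjusted p = 0.524, limma), and within lane 4 the values were 5655 in IRI rat 13 and 2809 in sham rat 9. The fold change was 0.46 without sham rat 3, whose value was 0, and 2.31 without sham rat 6.

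miR-29c-3p had 3737, 6277 and 4361 in IRI rats 1, 2 and 13 at day 1, against 0, 5629 and 0 in sham rats 3, 6 and 9. All IRI libraries held it, with 41 to 96 units, and of the sham libraries only that of rat 6 did, with 7 units. In sham rats 3 and 9 a count of 0 allows up to 3 units, scaled values of 4376 and 5619, above the values of IRI rats 1 and 13. The 95% exact intervals of these zeros end higher, at 5380 and 6910, and 6910 lies above all 3 IRI values. The log2 fold change was 2.17 (SE 1.01, adjusted p = 0.37, limma). Without sham rat 6 it was 3.37 with an adjusted p of 0.014 (limma), the only setting in which a member passed the threshold, and all remaining sham values were then 0.

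miR-29c-5p, from the other side of the same hairpin, had a lower mean in IRI than in sham at day 1, which rested on a single sham library. It had 0, 765 and 273 in IRI rats 1, 2 and 13, against 0, 804 and 3746 in sham rats 3, 6 and 9, the last from 2 units. The groups overlapped, and the log2 fold change was -0.83 (SE 0.82, adjusted p = 0.783, limma). Without sham rat 9 it was -0.04, and without sham rat 3 it was -1.58. In IRI rat 1, the zero for miR-29c-5p allowed a value of up to 249.2, while miR-29c-3p stood at 3737 there.

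**Figure D2:**
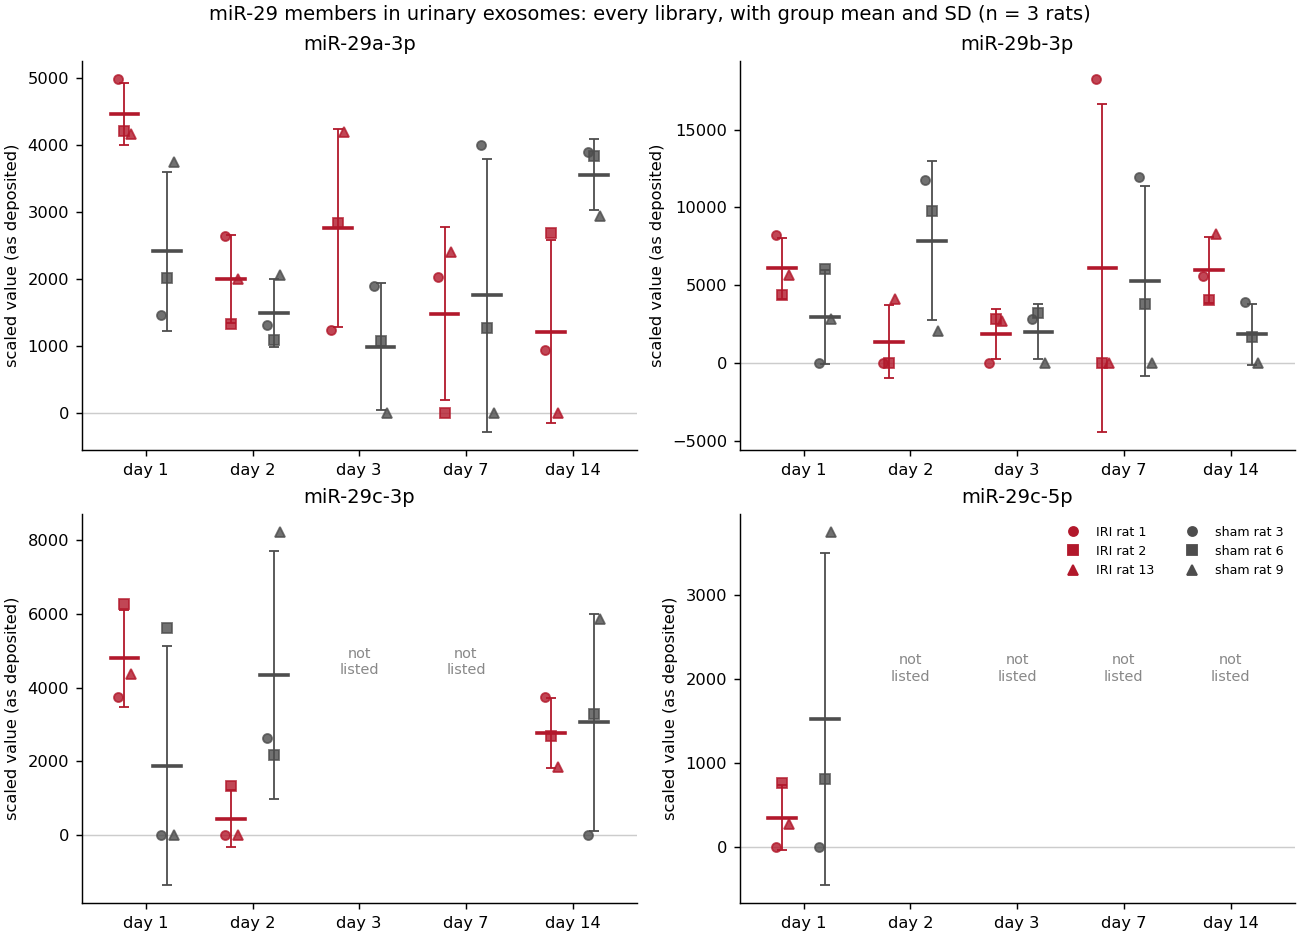
Scaled values (y axis, as deposited) of the 4 miR-29 members in every library by day (x axis), IRI rats in red to the left of sham rats in grey, with the group mean as a thick bar and the SD as a thin one (3 rats each). At day 1 all IRI values of miR-29a-3p (4156 to 4983) lie above the sham values (1459 to 3746), and at day 14 they lie below them.

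At day 2 miR-29b-3p and miR-29c-3p were lower in IRI than in sham at an unadjusted p below 0.05, and no member passed the adjusted threshold, as 1.16% of the 86 miRNAs did. A lower IRI value at that unadjusted level was found for 8.14% of all miRNAs, and the median fold change over all miRNAs was 0.11.

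miR-29c-3p had 0, 1324 and 0 in IRI rats 1, 2 and 13 at day 2, against 2616, 2170 and 8233 in sham rats 3, 6 and 9. No IRI library reached any sham library, a pattern in the lower direction that 11.6% of all miRNAs showed. The zeros of IRI rats 1 and 13 came from 3838 and 10542 listed reads, deeper than any sham library of that day, and allow values of up to 1439 and 631.8, under every sham value. The means were 441.3 ± 764.4 in IRI and 4340 ± 3379 in sham (SD, 3 rats each), and the log2 fold change was -2.44 (SE 0.77, adjusted p = 0.165, limma; unadjusted p = 0.0115). Pooled, 1 unit in IRI stood against 9 units in sham, a ratio of 0.0298 relative to pooled depth (95% counting interval 0.000679 to 0.215). Pooling gives the deepest library, that of IRI rat 13, the most weight, and the ratio of the means was 0.102. In lane 4 the values were 0 in IRI rat 13 and 8233 in sham rat 9.

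miR-29b-3p had 0, 0 and 4107 in IRI rats 1, 2 and 13 at day 2, against 11771, 9766 and 2058 in sham rats 3, 6 and 9. IRI rat 13 was above sham rat 9, its lane partner, so the groups overlapped and the pair within lane 4 went against the difference of the means. These were 1369 ± 2371 in IRI and 7865 ± 5128 in sham (SD, 3 rats each). The log2 fold change was -2.71 (SE 1.01, adjusted p = 0.316, unadjusted p = 0.0257, limma). The pooled ratio was 0.348, with a 95% interval of 0.141 to 0.887 for counting error only. With each value divided by its common multiple, the fold changes were -1.80 for miR-29b-3p and -1.84 for miR-29c-3p, with adjusted p of 0.442 and 0.338 (limma).

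miR-29a-3p did not follow them. It had 2638, 1324 and 2001 in IRI rats 1, 2 and 13 at day 2, against 1308, 1085 and 2058 in sham rats 3, 6 and 9. The groups overlapped, with a log2 fold change of 0.32 (SE 0.58, adjusted p = 0.841, limma). In IRI rat 1, 11 reads of miR-29a-3p were counted beside none of the other seed-sharing arms.

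**Figure D3:**
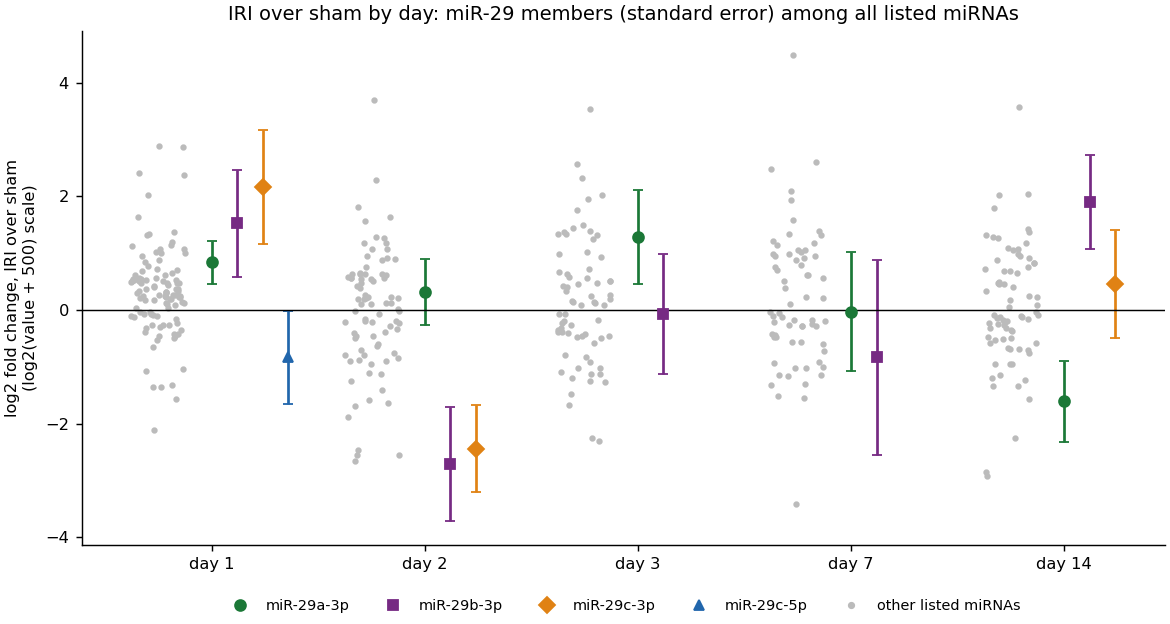
Log2 fold changes of IRI over sham (y axis, log2(value + 500) scale) by day (x axis) for the miR-29 members, with standard errors, beside all other listed miRNAs in grey. miR-29b-3p and miR-29c-3p lie at 1.53 and 2.17 at day 1 and at -2.71 and -2.44 at day 2, while miR-29a-3p lies at 1.29 at day 3 and at -1.61 at day 14; none of these passed the adjusted threshold.

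At day 3 only miR-29a-3p and miR-29b-3p were listed, and neither differed beyond the spread between rats. No member passed the adjusted threshold, as 1.39% of all 72 miRNAs did, and the groups of both members overlapped. miR-29a-3p had 1235, 2829 and 4190 in IRI rats 1, 2 and 13, against 1886, 1067 and 0 in sham rats 3, 6 and 9. Of its 32 IRI units 28 came from rat 13, and the log2 fold change was 1.29 (SE 0.83, adjusted p = 0.742, limma). miR-29b-3p had 0, 2829 and 2694 in IRI rats 1, 2 and 13, against 2829, 3202 and 0 in sham rats 3, 6 and 9. The log2 fold change of miR-29b-3p was -0.07 (SE 1.06, adjusted p = 0.948, limma), and its sign changed when libraries were recentred or rats left out.

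Day 7 had the shallowest libraries and gave no resolved difference. miR-29a-3p had 2031, 0 and 2398 in IRI rats 1, 2 and 13, against 3992, 1256 and 0 in sham rats 3, 6 and 9, from 0 to 2 reads each. miR-29b-3p had 18277, 0 and 0 in IRI rats 1, 2 and 13, against 11977, 3768 and 0 in sham rats 3, 6 and 9. The highest value of the family in any library, 18277, was thus 3 units in a library of 466 listed reads, with a 95% counting interval from 3770 to 53400. The groups of both members overlapped. The log2 fold changes were -0.03 (SE 1.05, adjusted p = 0.974) for miR-29a-3p and -0.83 (SE 1.72, adjusted p = 0.885) for miR-29b-3p (limma), and 2.94% of all 68 miRNAs passed the threshold. Either sign turned when single rats were left out.

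At day 14 miR-29a-3p and miR-29b-3p, which share the seed, stood on opposite sides, and neither passed the adjusted threshold, as 0.00% of the 79 miRNAs did. By an unadjusted p under 0.05, 9 miRNAs (11.4%) and none of the members did. As deposited, the groups did not overlap for miR-29a-3p, lower in IRI, or for miR-29b-3p, higher in IRI. Of all miRNAs, 11.4% were without overlap in each direction. Relative to listed totals (874598 in IRI rat 2 and 977567 in sham rat 9), miR-29a-3p was higher in IRI rat 2 than in sham rat 9.

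miR-29a-3p had 934, 2687 and 0 in IRI rats 1, 2 and 13 at day 14, against 3893, 3830 and 2936 in sham rats 3, 6 and 9. The IRI values came from 1, 2 and 0 reads and the sham values from 3, 7 and 2 reads. The means were 1207 ± 1364 in IRI and 3553 ± 535.3 in sham (SD, 3 rats each), and the log2 fold change was -1.61 (SE 0.71, adjusted p = 0.41, limma). The pooled ratio of 0.283 had a 95% counting interval of 0.0512 to 1.05, so the difference was not resolved at this depth. Within lane 3 IRI rat 2 had 2687 and sham rat 3 had 3893.

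miR-29b-3p had 5604, 4030 and 8287 in IRI rats 1, 2 and 13 at day 14, against 3893, 1642 and 0 in sham rats 3, 6 and 9. In units these were 2, 1 and 3 in IRI and 1, 1 and 0 in sham, and the IRI over sham ratio of 3.39 had a 95% counting interval of 0.606 to 34.4. The log2 fold change was 1.90 (SE 0.83, adjusted p = 0.41, limma). Within lane 3 IRI rat 2 had 4030 and sham rat 3 had 3893, each from 1 unit.

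miR-29c-3p had 3736, 2687 and 1842 in IRI rats 1, 2 and 13 at day 14, against 0, 3283 and 5871 in sham rats 3, 6 and 9. The groups overlapped, with a log2 fold change of 0.46 (SE 0.95, adjusted p = 0.861, limma), which was -0.63 without sham rat 3.

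**Figure D4:**
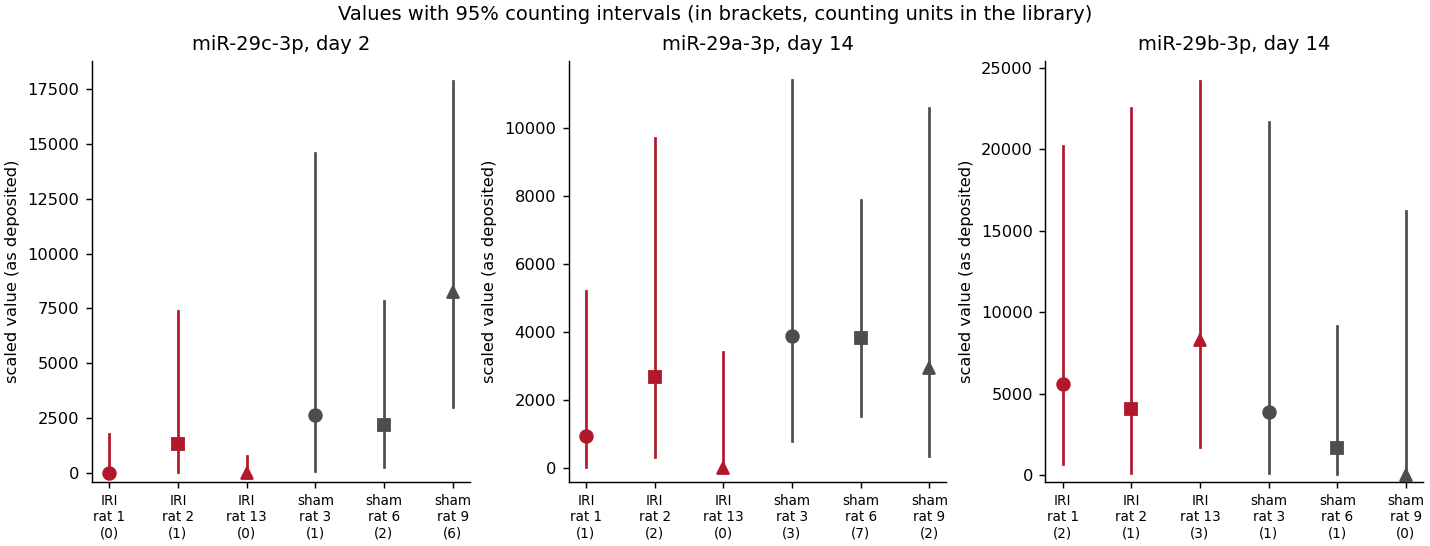
Scaled values (y axis) with 95% Poisson counting intervals for miR-29c-3p at day 2 and for miR-29a-3p and miR-29b-3p at day 14, IRI libraries left of sham libraries, with the number of units of each library in brackets. The intervals of IRI rats 1 and 13 for miR-29c-3p end under the 3 sham values but overlap intervals of sham libraries, and at day 14 intervals of IRI and sham libraries overlap for either member.

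Within each library the balance of both members was taken as log2(miR-29b-3p + 500) less log2(miR-29a-3p + 500), a measure chosen after the values were seen and therefore given with no test. At day 14 it was 2.09, 0.51 and 4.13 in IRI rats 1, 2 and 13, against 0.0, -1.01 and -2.78 in sham rats 3, 6 and 9. The balance of every IRI library was above that of every sham library, which had to follow from the opposite orders of the members that day. It adds nothing to those orders. By units, miR-29b-3p was below miR-29a-3p in IRI rat 2, with 1 against 2. At day 2 the order was not the same, with -2.65, -1.87 and 0.88 in IRI rats 1, 2 and 13, against 2.76, 2.69 and 0.0 in sham rats 3, 6 and 9.

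The 3p arms share a seed and thus the predicted target sites, so their values, each divided by its common multiple, were also summed per library as a description. At day 1 the sums were 9592, 8803 and 8222 in IRI rats 1, 2 and 13, against 1459, 6835 and 4682 in sham rats 3, 6 and 9. At day 2 they were 2638, 1986 and 3370 in IRI rats 1, 2 and 13, against 6540, 5425 and 6860 in sham rats 3, 6 and 9. The groups did not overlap on either day, with IRI above sham at day 1 and below it at day 2. This was the case for 16.4% and 11.6% of all single miRNAs in these directions. The day 1 listed totals were 854327 in sham rat 6, against 1481465 and 1151967 in IRI rats 1 and 13. Relative to these totals, sham rat 6 lay above IRI rats 1 and 13 at day 1, whereas day 2 kept its order. As miR-29c-3p was not listed at days 3 and 7, the sums of those days held miR-29a-3p and miR-29b-3p only. At day 3 the sums were 1235, 3772 and 5088 in IRI rats 1, 2 and 13, against 2829, 2134 and 0 in sham rats 3, 6 and 9, and at day 7 they were 8123, 0 and 2398 in IRI, against 7984, 2512 and 0 in sham. At day 14 they were 4670, 5374 and 3683 in IRI rats 1, 2 and 13, against 5191, 6019 and 5872 in sham rats 3, 6 and 9. The groups of these divided sums overlapped on these 3 days. At day 14 this depended on the division: summed as deposited, the values were 10274, 9404 and 10129 in IRI rats 1, 2 and 13, against 7786, 8755 and 8807 in sham rats 3, 6 and 9, without overlap and with IRI above sham. Of all single miRNAs, 11.4% were higher in IRI without overlap at day 14. Summed as deposited, days 1 and 2 kept their order. The sums were 14172 to 16942 in IRI and 1459 to 13670 in sham at day 1. At day 2 they were 2638 to 6108 in IRI and 12349 to 15695 in sham. Relative to listed totals, sham rat 6 again lay above IRI rats 1 and 13 at day 1.

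**Figure D5:**
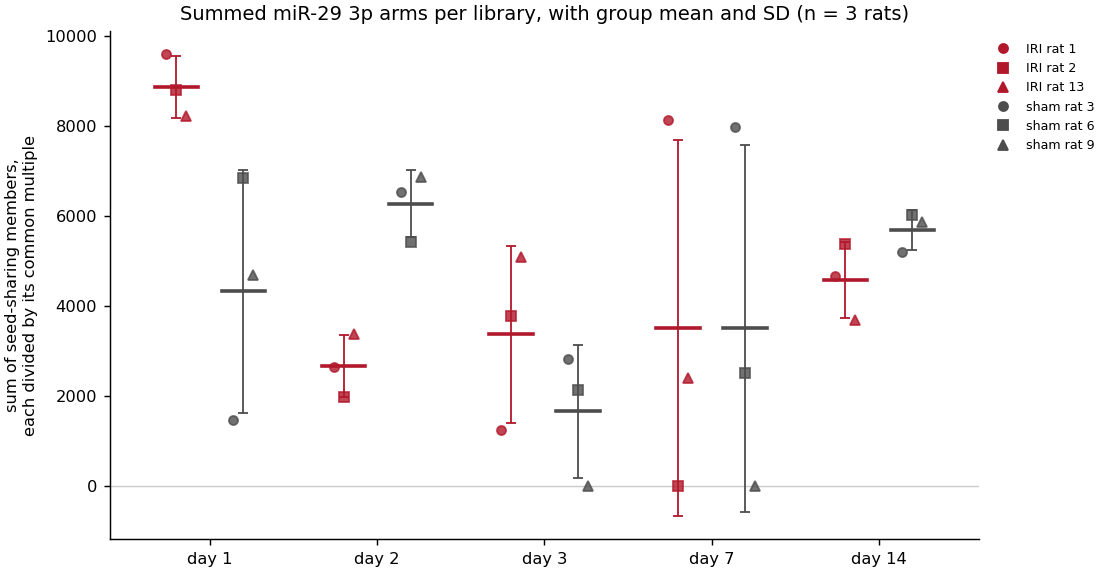
Sum of the listed seed-sharing miR-29 3p arms per library (y axis, scaled values divided by the common multiple of each member) by day (x axis), IRI rats in red to the left of sham rats in grey, with group mean and SD (3 rats each). IRI libraries lie at 8222 to 9592 at day 1 and at 1986 to 3370 at day 2, against 1459 to 6835 and 5425 to 6860 in sham libraries.

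To compare the injury state (days 1 and 2) with the recovery state (days 7 and 14), the IRI minus sham differences of both states were contrasted in 1 limma fit over 24 libraries and 61 miRNAs. The difference of miR-29a-3p at the later days was lower by 1.41 on the log2 scale (estimate -1.41, SE 0.74, adjusted p = 0.369, limma), and that of miR-29b-3p was higher by 1.12 (SE 1.35, adjusted p = 0.611, limma). Neither passed the threshold, as 3.28% of the miRNAs did. With 1 rat left out, miR-29a-3p ran from -2.13 (without sham rat 9) to -0.85 (without sham rat 3) and miR-29b-3p from 0.10 (without IRI rat 1) to 2.31 (without sham rat 3). As the sign of miR-29b-3p differed between days 1 and 2 (1.53 and -2.71), the mean of both days does not describe either.

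Among other miRNAs known to counter fibrosis, 14 were looked up and 14 were listed at days 1, 2, 3 and 14, and 13 at day 7. At day 1, 1 of them, miR-101a-3p, which targets the TGF-β receptor, was higher in IRI (adjusted p = 0.00383, limma), with 3218 ± 482.8 in IRI and 0 in all sham libraries (SD, 3 rats each). It was the only miRNA of the 110 (0.909%) that passed at day 1, and with an intensity trend in the variance none did. Its sham zeros came from 935 to 2125 listed reads, against 11165 to 50722 in IRI. Every listed miRNA was above 0 in at least 3 libraries of its day. miR-101a-3p was thus listed through its IRI libraries alone, and its p-value is no independent support for a difference. miR-200c-3p, a repressor of ZEB transcription factors, averaged 9583 ± 5902 in IRI and 689 ± 269.2 in sham at day 1 (SD, 3 rats each), with an adjusted p of 0.0695 (limma). At day 3 it averaged 15380 ± 22060 in IRI and 1026 ± 1070 in sham (SD, 3 rats each), with an adjusted p of 0.665 (limma). Its groups did not overlap on either day, as for 16.4% of all miRNAs at day 1 and 6.94% at day 3 in this direction. On the other days 0 of them passed in either direction. The median log2 fold changes of the list were 0.84, 0.56, 0.47, -0.06 and -0.02 at days 1, 2, 3, 7 and 14, against 0.30, 0.11, 0.13, -0.05 and -0.09 over all miRNAs. The list was chosen with earlier results of these data known, so this is not an independent comparison. The miR-29 members had medians of 1.19, -2.44, 0.61, -0.43 and 0.46 on these days.

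Of 12 miRNAs known to promote fibrosis, 2 to 4 were listed per day and 0 passed the threshold. miR-21-5p, the best known of them, averaged 89960 ± 67390 in IRI and 19240 ± 7453 in sham at day 3, without overlap (SD, 3 rats each). Its log2 fold change at day 3 was 2.03 (adjusted p = 0.647, limma), and 6.94% of all miRNAs were higher in IRI without overlap that day. miR-34a-5p, a p53 target, averaged 3062 ± 2541 in IRI and 0 in sham at day 7 (adjusted p = 0.138, limma), and 1825 ± 883.8 in IRI and 182.3 ± 315.8 in sham at day 14 (adjusted p = 0.172, limma). Its groups did not overlap on either day, as for 10.3% of all miRNAs at day 7 and 11.4% at day 14 in this direction. Every listed miRNA was above 0 in at least 3 libraries of its day. At day 7 miR-34a-5p was thus listed through its IRI libraries alone, and its groups could not overlap. Its sham zeros at day 7 came from 211 to 981 listed reads, against 431 to 837 in IRI.

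Over the 30 libraries, with each value centred on the mean of its day, the 3 miRNAs most like miR-29a-3p were miR-182 (Pearson r = 0.54), miR-181a-5p (0.522) and miR-200c-3p (0.434). Those most like miR-29b-3p were miR-196a-5p (0.479), miR-200c-3p (0.363) and miR-200b-3p (0.349). Between miR-29a-3p and miR-29b-3p r was 0.279, which placed miR-29b-3p at 14 of 55 miRNAs by likeness to miR-29a-3p, and miR-29a-3p at 10 of 55 by likeness to miR-29b-3p. These are descriptions over libraries that share days, rats and depth, and the r with the log2 listed reads was 0.319 for miR-29a-3p and 0.177 for miR-29b-3p.

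Markers of possible sources are given beside the miR-29 values. The summed values of the 9 kidney tubule markers, all listed at day 1, were 98208 to 150167 in IRI and 77309 to 95519 in sham, and at day 2, with 8 listed, 101926 to 164370 in IRI and 64086 to 143383 in sham. Of 8 blood cell markers 3 were listed at day 1, with sums of 32886 to 77694 in IRI and 9482 to 14047 in sham, and 2 at day 2, with 21179 to 35170 in IRI and 13035 to 25500 in sham. As deposited, the ranges did not overlap at day 1 and overlapped at day 2 for either list. Of all single miRNAs, 16.4% were higher in IRI without overlap at day 1. The listed total at day 1 was 1481465 in IRI rat 1, against 854327 to 875589 in sham libraries. Relative to these totals, the tubule sum of IRI rat 1 lay below that of the highest sham library. The blood sums kept their order relative to totals. The blood sum at day 1 was mostly miR-16-5p, abundant in red blood cells and many tissues. It averaged 48050 ± 25680 in IRI and 10570 ± 2293 in sham (SD, 3 rats each), with an adjusted p of 0.0695 (limma). Its groups did not overlap, as for 16.4% of all miRNAs at day 1 in this direction. miR-486 and miR-142-3p, the other blood markers listed then, had lower means in IRI, 186.3 and 179.7, than in sham, 932.3 and 624.3, and the median log2 fold change of the 3 was -0.35. The blood sums were also without overlap at day 3 (28290 to 58061 in IRI, 15089 to 25614 in sham). So they were at day 7 (23828 to 34523 in IRI, 11640 to 22609 in sham). Of all single miRNAs, 6.94% at day 3 and 10.3% at day 7 were higher in IRI without overlap. Of the 3 blood markers listed at day 3, 2 had lower estimates in IRI, and at day 7 only 1 was listed. The tubule sums overlapped on both days. At day 14, with 8 and 1 listed, the tubule sums were 61799 to 89318 in IRI and 73391 to 113267 in sham, and the blood sums 14733 to 21483 in IRI and 10275 to 15571 in sham. miR-451-5p, miR-144-3p, miR-223-3p and miR-150-5p, defining markers of red and white blood cells, were not listed on any day. Of 6 muscle and liver markers at most 1 was listed per day. Their part in the miR-29 values was not tested.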

How the data were processed

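Small RNA of urinary exosomes (Norgen kit, QIASeq miRNA libraries) was sequenced in 30 libraries. The deposited signal values are counts scaled by the authors in 1 table per day, after trimming in Cutadapt, mapping to the rat genome (version 5) through Bowtie and the mapper of miRDeep2, and counting in HTSeq. Tool versions and the scaling are not given in the sources used here. The deposited tables also hold the authors' edgeR log2 fold changes and log2 levels, likelihood ratio scores, and p-value and FDR columns, none of which was used. Of the per-sample columns 0 were left unused. Every listed miRNA was above 0 in at least 3 libraries of its day, and 0 pairs of libraries were identical.

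All 1516 values worth up to 20 reads were whole multiples (within 0.1) of a step of 22.7 to 3992.29 per library, taken as 1 read. Counting intervals are 95% exact intervals, and a count of 0 allows 3 units. Both cover counting error only. IRI and sham were compared with limma 3.58.1 (R 4.3.3) on log2(value + 500), since the scaled values do not suit a count test. P was adjusted by Benjamini-Hochberg over all miRNAs of a day (threshold 0.05). An exact permutation test of 3 against 3 rats cannot go below p = 0.1. The fit was tested on simulated data. Other steps used Python 3.11.15 with SciPy 1.17.1, NumPy 2.4.6, matplotlib 3.10.9 and pandas 2.3.3.

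Groups, rats and lanes came from the labels. The animal numbers recur across days, and libraries of a rat on different days had a mean correlation of 0.126 (60 pairs), against -0.0632 for different rats of a group (120 pairs). The members and lists were chosen with earlier results of these data known. Named are all members on each listed day, list members past the threshold or with an unadjusted p under 0.05 and no overlap, and the 3 miRNAs most correlated with miR-29a-3p and miR-29b-3p. The alternatives changed the constant (50, 2000 or 0.5 read), the filter (above 0 in at least 5 libraries), the scaling and the variance trend, left out each rat, or took the rat as a block. Division by the common multiple, the balance, the summed arms and the contrast of days 1 and 14 were chosen after the values were seen. Sequences came from RefSeq (GRCr8), and no coordinate of the authors' build was used.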

Additional observations from a re-analysis of the deposited data

Results flagged for a closer look

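The IRI minus sham difference of miR-29a-3p at day 14 was lower than that at day 1 by a contrast of both days in a limma fit, and was picked out for this difference between days. The change was -2.45 on the log2(value + 500) scale (SE 0.85, unadjusted p = 0.0131, adjusted p = 0.256 over 75 miRNAs, limma), and 0.00% of the miRNAs passed the adjusted threshold. With the rat as a block the adjusted p was 0.196. As deposited, all IRI libraries were above all sham libraries at day 1 (4156 to 4983 in IRI against 1459 to 3746 in sham). They were below them at day 14 (0 to 2687 in IRI against 2936 to 3893 in sham). These orders held for 16.4% of all miRNAs at day 1 and 11.4% at day 14. Relative to the listed total of each library, the groups overlapped on both days. The change was -1.71 for miR-29c-3p (adjusted p = 0.499) and 0.37 for miR-29b-3p (adjusted p = 0.869) in the same limma fit. With libraries scaled to equal totals, the change of miR-29a-3p was -2.14 (adjusted p = 0.297, limma). The day 14 values rest on 0 to 7 reads per library, and depth and lane, which differ between the groups, were not tested as its source. The contrast was chosen after the values had been seen.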

How the results depend on the processing

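No member passed the adjusted threshold under any alternative except miR-29c-3p at day 1 without sham rat 6. Signs held under all alternatives for the members at days 1 and 2, for miR-29a-3p at days 3 and 14 and for miR-29b-3p at day 14. miR-29b-3p at day 3 was 0.34 with recentred libraries and ran from -1.01 to 0.83 with 1 rat left out. miR-29a-3p at day 7 was 0.05 with a constant of 0.5 read, 0.10 recentred and -0.86 to 0.78 with 1 rat left out. With 1 rat left out, miR-29b-3p at day 7 ran from -2.58 to 0.20 and miR-29c-3p at day 14 from -0.63 to 1.2. Over the same omissions miR-29a-3p ran from 0.64 to 1.76 at day 3 and from -2.25 to -0.91 at day 14, and miR-29b-3p from 1.02 to 2.59 at day 14. Recentring set the median of all miRNAs at day 3 to 0.54, against 0.13. Calls over all miRNAs were 1 at days 1, 2 and 3, 2 at day 7 and 0 at day 14. At day 1 they were 9 with a constant of 50, 2 with 0.5 read, 4 with equal totals, 4 recentred and 0 with an intensity trend (18 at an unadjusted p under 0.05). At day 2 they were 2 with a constant of 2000, 2 with 0.5 read, 2 with the trend, and 0 with the filter (3 unadjusted) or after division by the common multiple (9 unadjusted). At day 3 they were 2 with the trend and 0 with 2000, 0.5 read, the filter or the division. At day 7 they were 1 with 2000 and 0 with the filter or the trend, and at day 14 they were 3 with 50, 2 with 2000, 1 recentred and 4 with the trend. With 1 rat left out calls ran from 1 to 3, 0 to 1, 0 to 1, 0 to 2 and 0 to 1 on the 5 days. The contrast of injury and recovery days gave 2 calls, 0 with 0.5 read or the filter, and 2 with the rat as a block. With the block miR-29a-3p was at -1.41 (adjusted p = 0.345, limma) and miR-29b-3p at 1.12 (adjusted p = 0.582, limma). Taking the rat as a block thus left the number of calls unchanged, and neither member was called. The filter left no value for miR-29c-3p and miR-29c-5p at day 1, miR-29b-3p and miR-29c-3p at day 2, miR-29b-3p at day 3 and both members at day 7. The planned count tests on whole reads were not run. Causes were not tested. At 0 to 7 units per library from day 7 on, depth limits what can be resolved.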
